A study of Homo sapiens with 8 samples.

Results

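Expression of 9 genes that move calcium or sodium across membranes, or that control such transport, was followed in 2 human acute myeloid leukaemia cell lines with and without cinobufagin. The genes were SLC8A1, ATP2B1, ATP2B4, ATP2A2, ATP2A3, SLC12A2, SGK1, STK39 and WNK1. They were taken by symbol, and each matched 1 of the 25593 gene rows of the deposited table. Cinobufagin, a steroid of toad venom, binds and inhibits the Na+/K+-ATPase. The groups were HL60 cells given 100 nM cinobufagin, untreated HL60 cells, Kasumi-1 cells given 100 nM cinobufagin and untreated Kasumi-1 cells, with 2 RNA sequencing libraries each. Treatment lasted 24 h. HL60 has been described as a promyelocytic line, and Kasumi-1 derives from a myeloblastic leukaemia with the RUNX1-RUNX1T1 fusion gene. HL60 was grown in 10% and Kasumi-1 in 20% fetal bovine serum, so an effect of serum and an effect of the line cannot be told apart. Nothing in the labels tells whether both libraries of a group are from different cultures, and the spread behind each p-value may therefore be technical.

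The Na+/K+-ATPase keeps sodium low inside the cell, and the sodium gradient it builds drives other carriers. The Na+/Ca2+ exchanger encoded by SLC8A1 uses that gradient to move calcium out of the cell and can run in reverse when sodium builds up inside. Plasma membrane calcium ATPases (ATP2B genes) pump calcium out, and SERCA pumps (ATP2A genes) return it to the endoplasmic reticulum. WNK1 is a chloride-sensitive kinase that activates the kinase SPAK, encoded by STK39, which in turn switches on the Na+/K+/Cl- cotransporter encoded by SLC12A2. SGK1 is a kinase whose gene responds to glucocorticoids, cell shrinkage and serum, and which promotes sodium transport in epithelia.

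Values are FPKM, fragments scaled to gene length and to the mapped fragments of a library, so levels of different genes can be set side by side, and a change is always relative to the rest of the same library. Group means are given ± SD over 2 libraries. Changes are log2 differences of FPKM + 1 with their SE, tested with limma across all tested genes, and a gene with an adjusted p under 0.05 is said to have risen or fallen. This scale understates changes of genes at low FPKM. Bulk RNA cannot tell fewer cells of a type from less RNA per cell.

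The libraries were of similar depth. Relative depth lay between 0.787 and 1.06, and 10623 to 11371 genes per library reached 1 FPKM. The 3 genes that identify Kasumi-1 (RUNX1T1, CD34 and KIT) summed to 193 to 238 FPKM in the 4 Kasumi-1 libraries and to 0.270 to 0.995 FPKM in the 4 HL60 libraries. Summed FPKM of 5 myeloid genes (PTPRC, CD33, SPI1, MPO and CSF3R) was 664 to 677 in treated HL60, against 3566 to 3644 in untreated HL60, and 7770 to 7773 in treated Kasumi-1, against 6297 to 6380 in untreated Kasumi-1. In untreated HL60 and in Kasumi-1 most of this sum was MPO. In HL60 MPO fell, with 245 and 274 FPKM in treated libraries against 3285 and 3369 FPKM in untreated ones. CD33 (29.4 and 27.5 FPKM, against 75.7 and 70.3 FPKM) and CSF3R (9.69 and 9.66 FPKM, against 31.3 and 30.4 FPKM) fell there too. PTPRC (126 and 121 FPKM, against 24.4 and 25.9 FPKM) and SPI1 (254 and 244 FPKM, against 150 and 149 FPKM) rose in HL60. Of 6 heart muscle markers, MYH6, MYH7, TNNT2, PLN and ACTC1 were listed at 0 in all 8 libraries, and NPPA reached at most 1.21 FPKM. Marker sums reached at most 1.15 FPKM for T cells (CD3G at 0 throughout), 0.550 FPKM for B cells (MS4A1 at 0) and 0.0895 FPKM for fibroblast and epithelial cells. The T cell sum was highest in treated HL60 (1.04 to 1.15 FPKM, against 0.0854 to 0.249 FPKM in untreated HL60), and its part in the changes was not tested.

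The member with the largest rise, SGK1, and the one with the largest fall, STK39, are shown with the 250 bases before their RefSeq transcription starts (GRCh38.p14, which differs from the hg19 build named for the deposited table). SGK1 has 3 such windows on the minus strand, at chr6:134318113-134318362, chr6:134177862-134178111 and chr6:134174867-134175116, and STK39 has 1 on the minus strand at chr2:168247596-168247845. Each is printed 5' to 3' along the gene, and capitals mark GC boxes (GGGCGG) and TATA boxes (TATAAA) found on either strand.
SGK1 window 1: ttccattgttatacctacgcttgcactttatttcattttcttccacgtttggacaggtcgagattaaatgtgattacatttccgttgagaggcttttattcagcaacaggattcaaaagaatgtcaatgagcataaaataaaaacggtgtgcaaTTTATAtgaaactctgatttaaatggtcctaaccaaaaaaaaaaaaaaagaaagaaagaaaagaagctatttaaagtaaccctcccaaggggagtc
SGK1 window 2: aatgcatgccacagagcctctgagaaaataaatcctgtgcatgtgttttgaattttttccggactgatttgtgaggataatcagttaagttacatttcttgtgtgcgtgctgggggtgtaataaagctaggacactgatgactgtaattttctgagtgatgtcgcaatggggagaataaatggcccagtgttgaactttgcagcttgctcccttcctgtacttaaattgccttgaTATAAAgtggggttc
SGK1 window 3: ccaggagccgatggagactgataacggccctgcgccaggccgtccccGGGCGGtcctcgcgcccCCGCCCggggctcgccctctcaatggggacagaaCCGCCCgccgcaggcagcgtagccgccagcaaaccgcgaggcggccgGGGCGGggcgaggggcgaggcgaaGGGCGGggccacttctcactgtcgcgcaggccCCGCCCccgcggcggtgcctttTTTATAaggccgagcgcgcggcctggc
STK39 window: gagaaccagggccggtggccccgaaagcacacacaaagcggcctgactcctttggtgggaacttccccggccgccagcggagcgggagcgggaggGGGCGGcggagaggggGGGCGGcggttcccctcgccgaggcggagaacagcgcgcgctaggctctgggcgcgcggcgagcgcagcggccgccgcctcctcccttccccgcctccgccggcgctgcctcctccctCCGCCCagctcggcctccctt
The 3 SGK1 windows differ in base composition, with 33.6% GC in the first, 41.6% in the second and 76% in the third. Each holds a match to the TATA box letters, at 96, 15 and 27 bases before its start, and the third also holds 6 GC boxes. The match runs along the gene in window 2 and lies on the opposite strand in windows 1 and 3. The STK39 window has 76.4% GC, 3 GC boxes and no TATA box. RefSeq windows were at hand for 8 of the 9 members, 14 windows in all, of which 9 held a GC box, in 8 members, and 4 held a TATA box, in SGK1 and SLC8A1. Among 35116 windows of the same length, 42.6% held a GC box and 10.7% a TATA box. An E-box (CACGTG), an AP-1 element (TGANTCA) and a cyclic AMP response element (TGACGTCA), none of which contains another of the motifs, were searched on both strands too. They occurred in 0 of the 14 windows and in 6.345%, 6.573% and 1.646% of all windows. The deposited values are per gene, so they do not show which start was used.

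**Figure D1:**
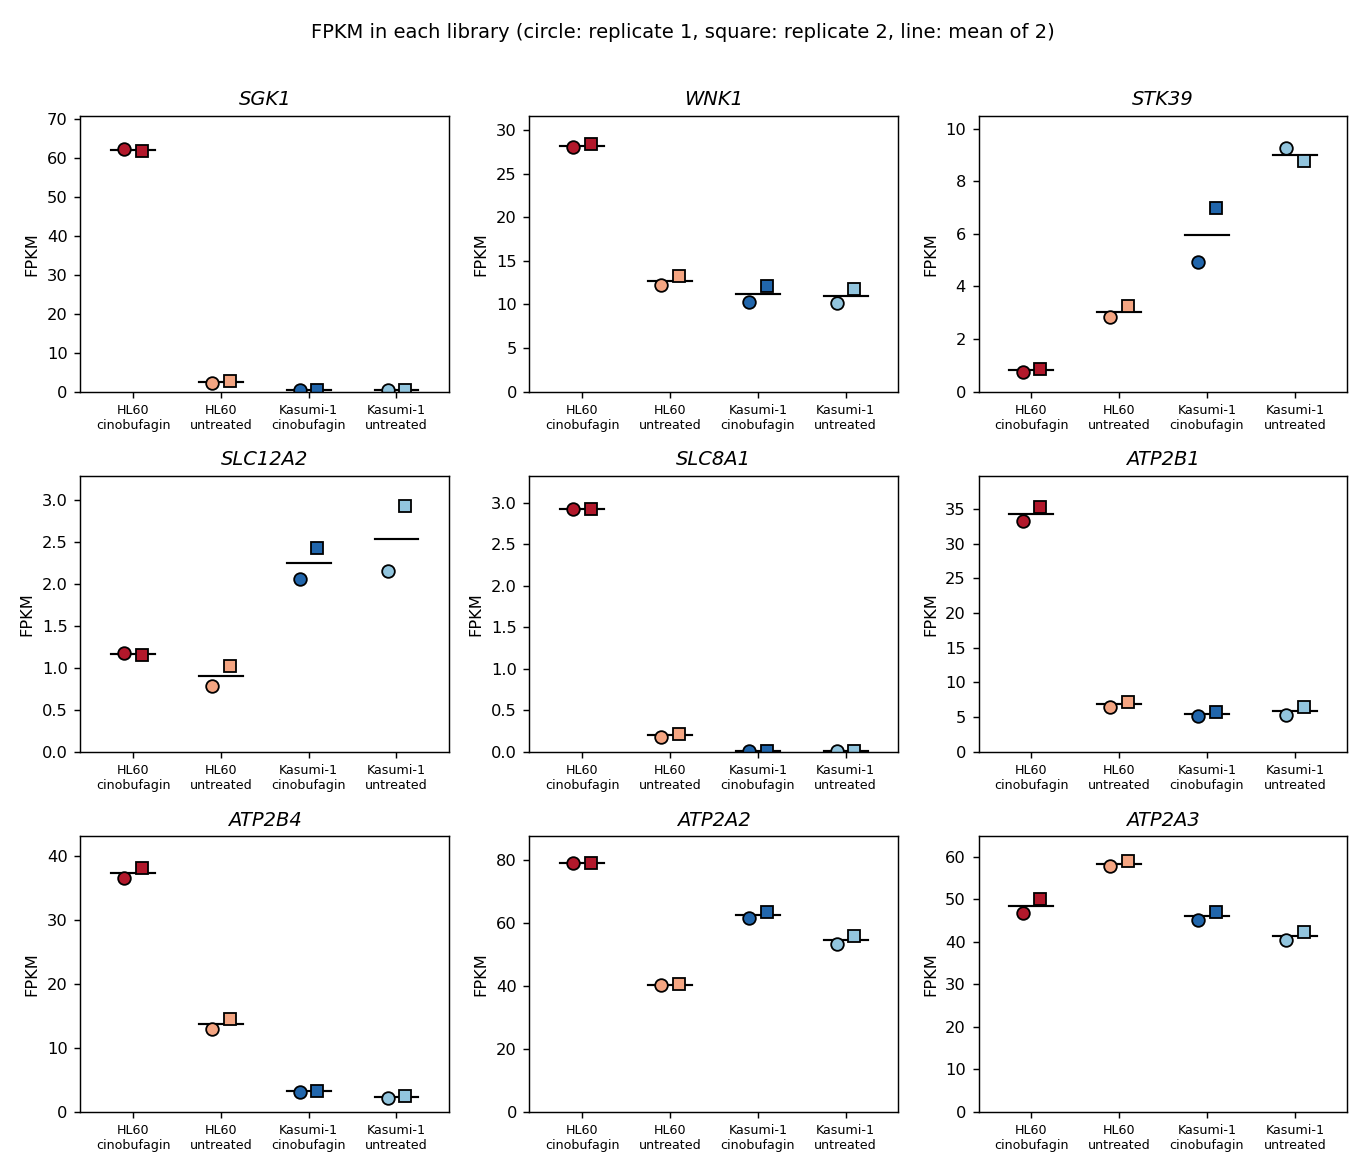
FPKM of the 9 genes in each of the 8 libraries by group (circles, replicate 1, and squares, replicate 2), with a line at the mean and a vertical axis from 0 for each gene. SGK1, SLC8A1, ATP2B1, ATP2B4, ATP2A2 and WNK1 lie highest in treated HL60 and STK39 lies lowest there, while within Kasumi-1 the treated points lie below the untreated ones for STK39 and near them for SGK1, SLC8A1, ATP2B1 and WNK1.

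HL60 cells given cinobufagin had more SGK1, SLC8A1, ATP2B1, ATP2B4, WNK1 and ATP2A2 RNA than untreated HL60 cells and less STK39 and ATP2A3 RNA. SGK1 had the widest change of the 9, with a mean FPKM 26.0 times as high in treated HL60 cells. Of the 9 genes, 6 rose and 2 fell, and SLC12A2 was not called. Across the 12511 genes tested, 73.6% were called in this comparison, 36.0% higher and 37.6% lower. SLC8A1 passed the filter of 1 FPKM in 2 libraries only through the treated HL60 libraries and so had to differ, and without it 5 of 8 genes rose and 2 fell. The median log2 change was 1.09 over the 9 genes (1.02 without SLC8A1) and -0.012 over all tested genes. The treated and untreated libraries did not overlap for any of the 9 genes, nor for 86.9% of all tested genes.

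The kinase SGK1 stood at 62.4 and 61.8 FPKM in treated HL60 and at 2.18 and 2.59 FPKM in untreated HL60. It rose by 4.22 ± 0.08 (log2, SE, limma adjusted p = 1.80e-07), and 0.743% of tested genes changed by more in either direction. Both treated libraries lay far above both untreated ones, and the level of SGK1 lay between those of ATP2A3 and ATP2A2 in treated HL60 and below that of STK39 in untreated HL60. WNK1, the upstream kinase of the SPAK pathway, had 28.0 and 28.3 FPKM in treated HL60, against 12.2 and 13.2 FPKM in untreated HL60. WNK1 rose by 1.09 ± 0.10 (log2, adjusted p = 6.75e-05), a mean FPKM 2.22 times as high. STK39, which encodes SPAK, the kinase that WNK1 phosphorylates, went the other way. STK39 had 0.760 and 0.872 FPKM in treated HL60, against 2.82 and 3.24 FPKM in untreated HL60, and fell by 1.15 ± 0.14 on the log2 scale (adjusted p = 0.000367). Its mean was 3.71 times as high in untreated HL60. With a pseudocount of 0.1 the log2 change of STK39 was -1.77. The ratio of WNK1 to STK39 FPKM was 34.7 ± 3.11 in treated HL60 and 4.20 ± 0.178 in untreated HL60.

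SLC12A2, the sodium-potassium-chloride cotransporter that SPAK activates, was low in HL60, with 1.17 and 1.16 FPKM in treated and 0.779 and 1.03 FPKM in untreated libraries. The treated values lay above the untreated ones by little more than the gap between the untreated libraries. Its log2 change of 0.19 ± 0.13 was not called (adjusted p = 0.222, 95% interval -0.12 to 0.50). After quantile normalization it was 0.33 and was called (adjusted p = 0.0466).

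Among the calcium extruders, the exchanger SLC8A1 had 2.93 FPKM in both treated HL60 libraries, against 0.182 and 0.214 FPKM in untreated HL60. It rose by 1.71 ± 0.06 (log2, adjusted p = 1.03e-06), and its mean FPKM was 14.8 times as high. It passed the filter only through the treated HL60 libraries and so had to differ, and its p-value is no separate support. With a pseudocount of 0.1, which compresses low values less, the log2 change was 3.35. The plasma membrane calcium pump ATP2B1, found in most tissues, had 33.2 and 35.3 FPKM in treated HL60, against 6.49 and 7.23 FPKM in untreated HL60, and rose by 2.17 ± 0.10 (log2, adjusted p = 3.03e-06). ATP2B4, another plasma membrane pump, had 36.6 and 38.1 FPKM in treated HL60, against 12.9 and 14.5 FPKM in untreated HL60. It rose by 1.39 ± 0.08 (log2, adjusted p = 1.14e-05). ATP2B1, the lower of the pair in untreated HL60, rose by more, and both stood close together in treated HL60. ATP2B1 made up 47.6% and 48.1% of the summed FPKM of both in treated HL60, against 33.5% and 33.3% in untreated HL60. The sum was 71.6 ± 2.51 FPKM in treated and 20.5 ± 1.67 FPKM in untreated HL60.

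The SERCA genes parted. ATP2A2, which encodes the widely expressed SERCA pump, had 79.2 and 79.1 FPKM in treated HL60, against 40.3 and 40.7 FPKM in untreated HL60, and rose by 0.95 ± 0.04 (log2, adjusted p = 3.94e-06). ATP2A3, the SERCA gene best known from blood cells, had 46.8 and 50.0 FPKM in treated HL60, against 57.7 and 59.0 FPKM in untreated HL60, and fell by 0.27 ± 0.05 on the log2 scale (adjusted p = 0.00357). ATP2A3 was the more abundant SERCA transcript in untreated HL60 and ATP2A2 the more abundant in treated HL60. ATP2A3 accounted for 37.1% and 38.7% of their summed FPKM in treated HL60 and for 58.9% and 59.2% in untreated HL60. Their sum was 128 ± 2.20 FPKM in treated and 98.9 ± 1.18 FPKM in untreated HL60. The fall of ATP2A3 was among the smaller changes, since 72.7% of tested genes changed by more.

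**Figure D2:**
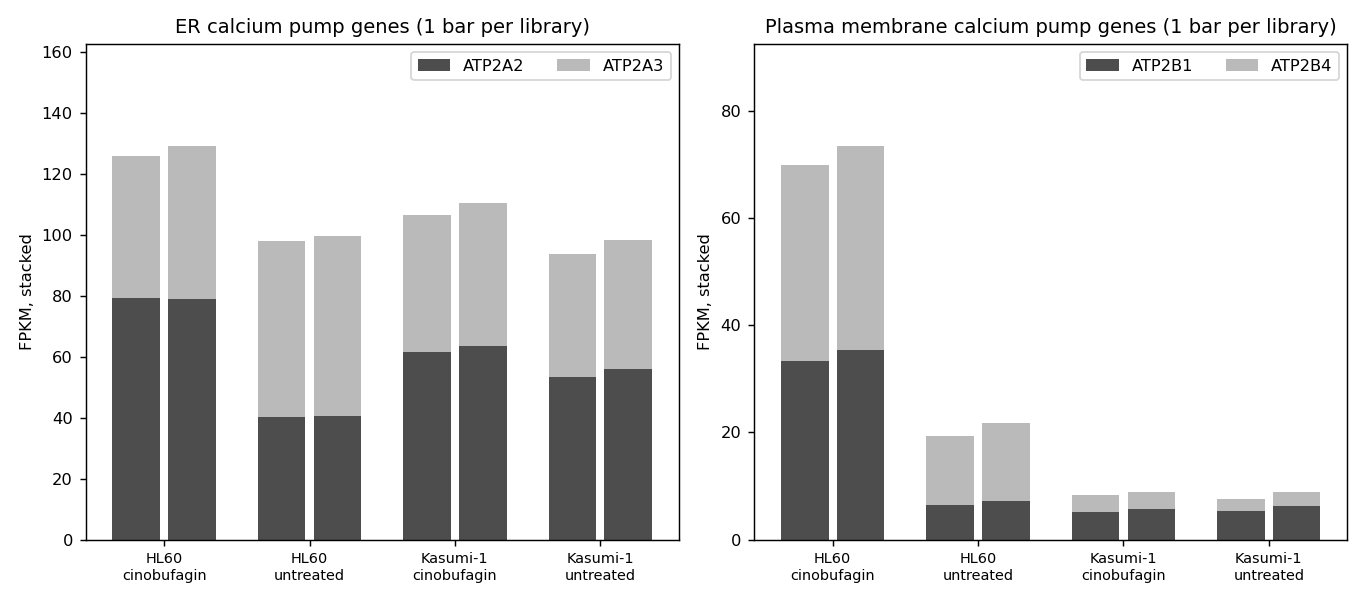
Stacked FPKM of the SERCA genes ATP2A2 and ATP2A3 (left) and of the plasma membrane pump genes ATP2B1 and ATP2B4 (right), with 1 bar per library. ATP2A3 made up 37.1% and 38.7% of the SERCA sum in treated HL60 and 58.9% and 59.2% in untreated HL60, while its share in Kasumi-1 lay between 42.3% and 43.0%.

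Kasumi-1 cells given cinobufagin differed less from untreated ones than HL60 cells did, in these genes and across all tested genes. ATP2B4 and ATP2A2 rose slightly, STK39 fell, and SLC8A1, ATP2B1, SLC12A2, SGK1, WNK1 and ATP2A3 were not called. All 3 calls were close to the threshold. STK39 was exceeded in size of change by 7.32% of tested genes, ATP2B4 by 22.7% and ATP2A2 by 45.5%. Of all tested genes 26.3% were called, 10.1% higher and 16.2% lower. The 1266 genes called higher and 2026 called lower became 1629 and 1595 when libraries were rescaled by the median ratio. The median log2 change was 0.024 over the 9 genes (0.067 without SLC8A1) and -0.036 over all tested genes. Regardless of sign, the median over all tested genes was 0.170 in Kasumi-1 and 0.567 in HL60. Treated and untreated libraries did not overlap for 5 of the 9 genes (ATP2B4, ATP2A2, ATP2A3, SGK1 and STK39) and for 61.5% of tested genes.

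The plasma membrane pump ATP2B4 had 3.07 and 3.28 FPKM in treated Kasumi-1, against 2.16 and 2.51 FPKM in untreated Kasumi-1. Its log2 change was 0.33 ± 0.08 (SE, limma adjusted p = 0.0330). ATP2A2 had 61.5 and 63.5 FPKM in treated Kasumi-1, against 53.4 and 56.0 FPKM in untreated Kasumi-1, a log2 change of 0.19 ± 0.04 (adjusted p = 0.0254). Neither pair of groups overlapped, and both rises were under 1.5 times in mean FPKM. STK39 had 4.92 and 6.99 FPKM in treated Kasumi-1, against 9.28 and 8.75 FPKM in untreated Kasumi-1. It fell by 0.54 ± 0.14 on the log2 scale (adjusted p = 0.0364). The treated STK39 libraries stood further apart than the untreated ones, and the log2 difference between libraries of the same number was -0.80 for replicate 1 and -0.29 for replicate 2.

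No call in Kasumi-1 held under every alternative. ATP2B4 lost its call without HL60 treated replicate 1 (adjusted p = 0.0580) or 2 (0.0578), and without Kasumi-1 treated replicate 1 (0.0799) or 2 (0.121) or untreated replicate 1 (0.136) or 2 (0.0510). ATP2A2 lost its call without HL60 untreated replicate 1 or 2 (0.0503 each), and without Kasumi-1 treated replicate 1 (0.0608) or 2 (0.101) or untreated replicate 1 (0.118) or 2 (0.0545). Among the fits that left out 1 library, STK39 was called only without Kasumi-1 treated replicate 2. It lost its call without HL60 treated replicate 1 (0.0606) or 2 (0.0603), HL60 untreated replicate 1 (0.0552) or 2 (0.0555), and Kasumi-1 untreated replicate 1 (0.133) or 2 (0.102). Without Kasumi-1 treated replicate 1 its log2 change was -0.33 (0.0920). Directions were the same in each of these fits.

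The other members were not called. SGK1 was low, with 0.419 and 0.387 FPKM in treated Kasumi-1, against 0.289 and 0.311 FPKM in untreated Kasumi-1. Its log2 change was 0.11 ± 0.08 (adjusted p = 0.340, 95% interval -0.074 to 0.29), with both treated values above both untreated ones, and it was 0.33 with a pseudocount of 0.1, again without a call. WNK1 had 10.3 and 12.1 FPKM in treated Kasumi-1, against 10.2 and 11.8 FPKM in untreated Kasumi-1. These groups overlapped, as did those of ATP2B1, SLC12A2 and SLC8A1, and the log2 change of WNK1 was 0.024 ± 0.10 (adjusted p = 0.889, 95% interval -0.21 to 0.26). ATP2B1 had 5.19 and 5.71 FPKM in treated Kasumi-1, against 5.35 and 6.37 FPKM in untreated Kasumi-1, for a log2 change of -0.085 (adjusted p = 0.561, 95% interval -0.32 to 0.14). SLC12A2 had 2.07 and 2.43 FPKM in treated Kasumi-1, against 2.15 and 2.94 FPKM in untreated Kasumi-1, for a log2 change of -0.12 (adjusted p = 0.537, 95% interval -0.43 to 0.19). ATP2A3, with 45.2 and 46.9 FPKM in treated Kasumi-1 and 40.3 and 42.2 FPKM in untreated Kasumi-1, did not overlap between groups but missed the threshold (log2 change 0.15 ± 0.05, adjusted p = 0.0792, 95% interval 0.025 to 0.28, which lies above 0 before adjustment over all genes). It was called at 0.21 after rescaling by the median ratio (adjusted p = 0.0359).

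SLC8A1 was barely measured in Kasumi-1, with 0.0122 and 0.00912 FPKM in treated and 0.00990 and 0.00902 FPKM in untreated libraries. Multiplied by the relative depth of their library, these values were 0.0096 and 0.0095 in treated and 0.0096 and 0.0096 in untreated libraries, so they differed only as depth did. No fold between treated and untreated Kasumi-1 is given at this level.

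The change with cinobufagin differed between the lines for 8 of the 9 genes in limma's interaction contrast (Kasumi-1 change minus HL60 change). ATP2B1, SLC8A1, SGK1, WNK1, ATP2B4 and ATP2A2 changed less in Kasumi-1, with negative differences, and ATP2A3 and STK39 had positive ones. Of all tested genes 63.1% were called in this contrast, 30.1% higher and 33.1% lower, and without SLC8A1 the members numbered 2 positive and 5 negative of 8. The median difference was -1.06 over the 9 genes (-0.91 without SLC8A1) and -0.028 over all tested genes. The difference for SGK1 was -4.11 ± 0.11 (log2, SE, adjusted p = 2.20e-06). For ATP2B1 it was -2.25 ± 0.13 (adjusted p = 3.07e-05), and 3.52% of tested genes differed by more. WNK1 differed by -1.07 ± 0.14 (adjusted p = 0.000697).

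ATP2A2 was called higher in both lines, yet its changes differed by -0.76 ± 0.06 (log2, adjusted p = 0.000109). The difference for ATP2B4, the other gene called higher in both, was -1.06 ± 0.12 (adjusted p = 0.000377). ATP2A3, which fell in HL60 and lay higher without a call in treated Kasumi-1, had a difference of 0.42 ± 0.07 (adjusted p = 0.00305). STK39 was called lower in both lines, and its smaller fall in Kasumi-1 gave a difference of 0.61 ± 0.20 (adjusted p = 0.0376). That call was lost without HL60 treated replicate 1 (adjusted p = 0.103) or 2 (0.0706), HL60 untreated replicate 1 (0.0549) or 2 (0.107), and Kasumi-1 untreated replicate 1 (0.0670) or 2 (0.0962), and after quantile normalization (0.42, adjusted p = 0.112). With a pseudocount of 0.1 the difference was 1.16 for STK39 and -3.33 for SLC8A1, against -1.71 ± 0.08 with a pseudocount of 1 (adjusted p = 1.21e-05). SLC8A1 was in this test only through the treated HL60 libraries. The difference for SLC12A2, -0.31 ± 0.18, was not called (adjusted p = 0.177, 95% interval -0.74 to 0.12). Without Kasumi-1 untreated replicate 1 it was -0.47 and called (adjusted p = 0.0429).

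**Figure D3:**
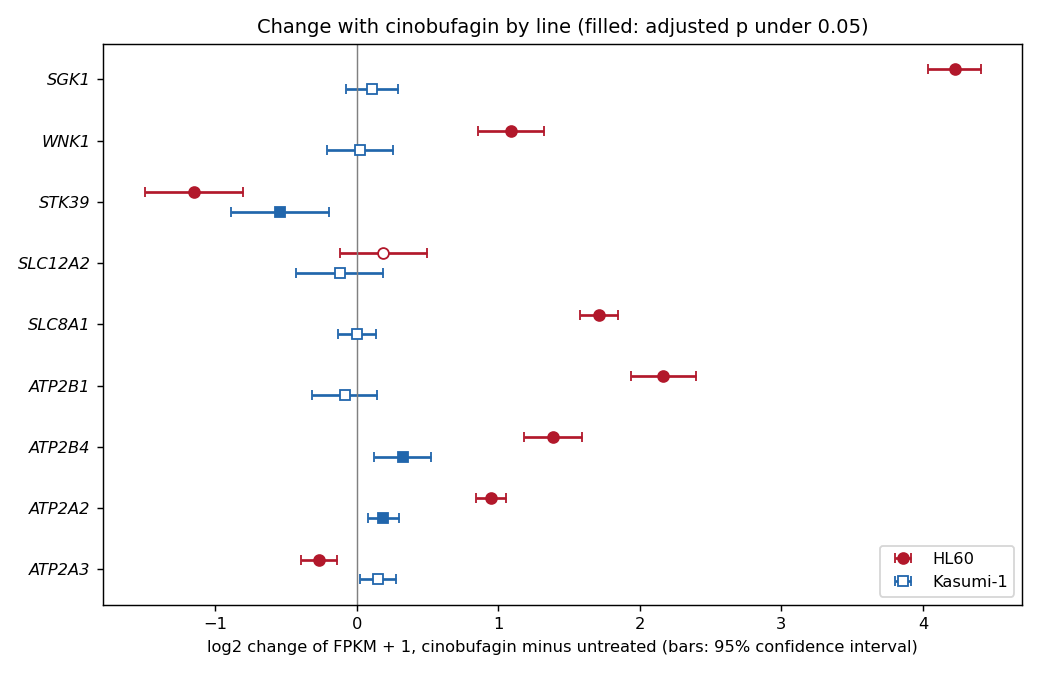
Log2 change of FPKM + 1 with cinobufagin and its 95% interval (bars) for the 9 genes in HL60 (circles) and in Kasumi-1 (squares), filled where the adjusted p was under 0.05. HL60 changes run from -1.15 for STK39 to 4.22 for SGK1, while those in Kasumi-1 lie between -0.54 and 0.33.

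Untreated Kasumi-1 cells carried more STK39, SLC12A2 and ATP2A2 RNA than untreated HL60 cells and less ATP2B4, SGK1, ATP2A3 and SLC8A1 RNA. ATP2B1 and WNK1 were lower without a call. Of all tested genes 69.7% were called between the untreated lines, 35.9% higher and 33.8% lower in Kasumi-1, and 3 of the 9 members were higher and 4 lower. Without SLC8A1 these were 3 and 3 of 8, and the median difference was -0.20 over the members with and without it, against 0.0050 over all tested genes. No member overlapped between the untreated lines, nor did 84.5% of tested genes.

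ATP2B4 stood at 2.33 ± 0.247 FPKM in untreated Kasumi-1 and 13.7 ± 1.14 FPKM in untreated HL60 (log2 difference -2.14 ± 0.08, adjusted p = 1.58e-06). SGK1 had 0.30 ± 0.0155 FPKM in untreated Kasumi-1 and 2.38 ± 0.289 FPKM in untreated HL60 (-1.38 ± 0.08, adjusted p = 7.80e-06), and the difference was -2.63 with a pseudocount of 0.1. The 2 members of the SPAK pathway below WNK1 were higher in Kasumi-1. STK39 had 9.02 ± 0.371 FPKM in untreated Kasumi-1 and 3.03 ± 0.296 FPKM in untreated HL60 (1.32 ± 0.14, adjusted p = 0.000206). SLC12A2 had 2.54 ± 0.556 FPKM in untreated Kasumi-1 and 0.903 ± 0.175 FPKM in untreated HL60 (0.89 ± 0.13, adjusted p = 0.000783), and the difference was 1.39 with a pseudocount of 0.1.

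The SERCA genes differed by less. ATP2A2 averaged 54.7 ± 1.85 FPKM in untreated Kasumi-1 and 40.5 ± 0.232 FPKM in untreated HL60 (log2 difference 0.42 ± 0.04, adjusted p = 0.000171). ATP2A3 averaged 41.3 ± 1.35 FPKM in untreated Kasumi-1 and 58.4 ± 0.950 FPKM in untreated HL60 (-0.49 ± 0.05, adjusted p = 0.000197). SLC8A1 averaged 0.00946 ± 0.000628 FPKM in untreated Kasumi-1 and 0.198 ± 0.0231 FPKM in untreated HL60 (-0.25 ± 0.06, adjusted p = 0.00695), and with a pseudocount of 0.1 the difference was -1.44. ATP2B1, at 5.86 ± 0.721 FPKM in untreated Kasumi-1 and 6.86 ± 0.523 FPKM in untreated HL60, was not called (-0.20 ± 0.10, adjusted p = 0.105). It was called after quantile normalization (-0.27, adjusted p = 0.0276) and without Kasumi-1 untreated replicate 2 (-0.31, adjusted p = 0.0386). WNK1 was not called either, at 11.0 ± 1.11 FPKM in untreated Kasumi-1 and 12.7 ± 0.705 FPKM in untreated HL60 (-0.20 ± 0.10, adjusted p = 0.115).

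Ordered by mean FPKM, treated HL60 stood first of the 4 groups for SGK1, SLC8A1, ATP2B1, ATP2B4, ATP2A2 and WNK1 and last for STK39. For SGK1, SLC8A1 and ATP2B4 the order was treated HL60, untreated HL60, treated Kasumi-1 and untreated Kasumi-1, and only the last neighbours of SLC8A1 overlapped. Both Kasumi-1 groups of ATP2B1 and of WNK1 lay below untreated HL60 and overlapped each other. ATP2A2 ran from treated HL60 through treated and untreated Kasumi-1 to untreated HL60 without overlap. ATP2A3 was highest in untreated HL60, then in treated HL60 (48.4 ± 2.28 FPKM) and treated Kasumi-1 (46.0 ± 1.21 FPKM), which overlapped narrowly, and lowest in untreated Kasumi-1. STK39 and SLC12A2 were higher in both Kasumi-1 groups than in both HL60 groups.

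The genes nearest to each member were found as those with the smallest root mean square difference of log2(FPKM + 1) over the 8 libraries, each gene centred on its own mean. SGK1, whose own SD over the libraries was 2.28, was nearest to GABARAPL1 (0.14) and AQP9 (0.16). SLC8A1 was nearest to MTF1 (0.043) and LAMTOR3 (0.051), ATP2B1 to RBM47 (0.068) and CD163 (0.077), and ATP2B4 to MTMR6 (0.15) and SLC7A11 (0.16). ATP2A2 was nearest to PTTG1IP (0.045) and SS18 (0.045), and ATP2A3, with an SD of only 0.18, to DSN1 (0.049) and COMMD6 (0.053). SMC2 (0.064) and ORC4 (0.067) were nearest to SLC12A2, METTL8 (0.12) and NAT8L (0.13) to STK39, and PNRC2 (0.041) and DCP1A (0.056) to WNK1. Among the members themselves SLC8A1 and ATP2B1 were the most alike (0.21), and SGK1 and STK39 the least (3.17). SLC8A1, RBM47 and CD163 passed the filter only through treated HL60, so their high values there were fixed in advance. The pseudocount of 1 also compresses SLC8A1, whose mean FPKM was 14.8 times as high in treated HL60, against 4.99 times for ATP2B1. RBM47 and CD163 are compressed likewise, with means of 4.30 and 4.21 FPKM in treated and 0.262 and 0.218 FPKM in untreated HL60. MTF1, nearest to SLC8A1, had 14.2 FPKM in treated and 3.45 FPKM in untreated HL60. Nearness on this scale therefore does not mean a like fold.

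Other genes of these pathways were read from lists written from textbook knowledge, leaving out the 9 members. Their counts stand beside the shares of all tested genes given above, 36.0% higher and 37.6% lower in HL60, and no list was tested against other genes. All genes named as risen or fallen had an adjusted p under 0.05 in limma. Of the 7 other calcium pumps and exchangers tested in HL60, 3 rose and 3 fell, with a median log2 change of 0.15. ATP2C1, the calcium and manganese pump of the Golgi, stood at 68.7 ± 1.75 FPKM in treated HL60 and 35.3 ± 1.49 FPKM in untreated HL60 and rose by 0.94 (log2, limma adjusted p = 5.83e-06). SLC24A6, which encodes the mitochondrial sodium-calcium exchanger, stood at 8.39 ± 0.0117 FPKM in treated HL60 and 20.0 ± 0.933 FPKM in untreated HL60 and fell by 1.16 on the log2 scale (adjusted p = 9.83e-06). LETM1, a cation exchanger of the inner mitochondrial membrane, also fell (by 0.93), and ATP2A1, the SERCA gene of skeletal muscle, had 2.39 FPKM in treated and 0.859 FPKM in untreated HL60. ATP2A1 passed the filter only through the treated HL60 libraries and so had to differ, and without it 2 of 6 rose and 3 fell, with a median of -0.28.

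Channels and sensors of calcium moved in both directions in HL60. Of 31 entry and release channel genes tested, 9 rose and 11 fell, with a median log2 change of -0.02. The lysosomal channel MCOLN1 rose by 2.10, to 28.9 ± 1.30 FPKM in treated HL60 against 6.01 ± 0.632 FPKM in untreated HL60. TMEM66, an inhibitor of store-operated calcium entry, rose by 1.45, while ORAI3, a channel subunit of that entry, fell by 1.28 and EFCAB4B, a calcium sensor that regulates it, fell by 1.69. Other genes of the same entry path, named after their values were seen, rose: STIM1 and STIM2, the calcium sensors of the endoplasmic reticulum, by 0.92 and 0.44, and the channel subunit ORAI1 by 0.63. Of 21 calcium sensor, calcineurin and calmodulin kinase genes tested, 8 rose and 9 fell, with a median of -0.15 (7 and 9 of 20 without CAMK1D, which passed the filter only through treated HL60). RCAN1, an inhibitor of calcineurin whose gene is itself a calcineurin target, rose by 2.17, to 27.5 ± 0.124 FPKM in treated HL60 against 5.33 ± 0.455 FPKM in untreated HL60. The transcription factor NFATC1 rose by 1.24, and the kinases CAMK2G and CAMKK2 fell by 1.73 and 1.47.

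Of 16 partners and regulators of the pumps, 4 rose and 9 fell in HL60, with a median log2 change of -0.23. NPTN, a subunit of plasma membrane calcium pumps, rose by 1.31, to 77.4 ± 1.71 FPKM in treated HL60 against 30.6 ± 0.630 FPKM in untreated HL60. CALR, the calcium-storing chaperone of the endoplasmic reticulum, fell by 1.83, to 591 ± 26.7 FPKM in treated HL60 against 2102 ± 26.3 FPKM in untreated HL60. For both, the treated and untreated libraries were far apart relative to their spread. BSG, a more abundant gene of this list than NPTN, was looked up after the values were seen. It fell by 0.20 in HL60, to 339 and 358 FPKM in treated against 415 and 386 FPKM in untreated libraries. In Kasumi-1 BSG rose by 0.52.

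Beside WNK1 and STK39, 8 genes of the WNK and SPAK pathway were tested in HL60, of which 6 rose and 1 fell (median log2 change 0.58). CAB39L, a scaffold of the kinases STK39 and OXSR1, rose by 1.31, to 4.02 ± 0.382 FPKM in treated HL60 against 1.02 ± 0.0622 FPKM in untreated HL60, and RELL1, a membrane protein, rose by 1.16. CAB39, a more abundant gene of this list than CAB39L, was looked up after the values were seen. It had 40.3 and 45.5 FPKM in treated HL60, against 36.4 and 42.5 FPKM in untreated HL60. CAB39 was not called (log2 change 0.12, limma adjusted p = 0.538). RELL2 fell by 0.61 (adjusted p = 0.0159), a call lost under 3 of 15 alternatives. OXSR1, the close relative of STK39, was looked up after the values were seen. It had 22.6 ± 0.320 FPKM in treated HL60 and 16.9 ± 1.57 FPKM in untreated HL60, and the ratio of OXSR1 to STK39 was 27.9 ± 3.09 in treated and 5.59 ± 0.0275 in untreated HL60. WNK2, WNK3, WNK4 and KLHL3 did not pass the filter. Of 4 other cation-chloride cotransporters tested, 1 rose and 0 fell by limma (1 at an unadjusted p under 0.05), with a median log2 change of 0.065.

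Of 17 genes of SGK kinases, their activators and their substrates tested beside SGK1, 6 rose and 7 fell in HL60, with a median log2 change of -0.02. SGK3, the relative of SGK1 found on endosomes, fell by 1.35, to 1.55 ± 0.101 FPKM in treated HL60 against 5.60 ± 1.57 FPKM in untreated HL60. NDRG1, a substrate of SGK1, rose by 1.05, to 38.4 ± 2.96 FPKM in treated HL60 against 18.0 ± 0.634 FPKM in untreated HL60. PDPK1, a kinase that activates SGK1, rose by 1.02, and PRR5, a component of the kinase complex mTORC2, fell by 2.41. Of 7 steroid receptors and common steroid targets, 5 rose and 2 fell (median 0.74). TSC22D3, a glucocorticoid-induced leucine zipper, rose by 3.32, to 144 ± 0.286 FPKM in treated HL60 against 13.5 ± 0.542 FPKM in untreated HL60. The phosphatase DUSP1 rose by 2.93, while FKBP5, a chaperone partner of the glucocorticoid receptor, fell by 1.47 and the transcription factor ZBTB16 fell by 1.36. Also among the rises, looked up after the values were seen, were NR3C1, KLF9 and PER1, by 1.44, 0.74 and 0.37.

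Sodium entry and cell volume genes also split in HL60. Of 14 genes for sodium entry and proton or bicarbonate exchange, 5 rose and 4 fell (median log2 change 0.01). SLC9B2, a sodium-proton exchanger, fell by 2.27, to 0.654 ± 0.0102 FPKM in treated HL60 against 6.96 ± 0.0736 FPKM in untreated HL60. Of 14 cell volume and osmotic response genes, 6 rose and 5 fell (median 0.05). AQP9, a channel for water and small solutes, rose by 4.52, to 45.1 ± 0.731 FPKM in treated HL60 against 1.01 ± 0.116 FPKM in untreated HL60, and the taurine transporter SLC6A6 rose by 2.00. Of the 4 Na+/K+-ATPase genes tested, 3 rose, among them ATP1B3 by 1.44, and FXYD5 fell by 0.38. ATP1B1, another of the 3, passed the filter only through treated HL60.

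In Kasumi-1, where 10.1% of all tested genes rose and 16.2% fell, the other calcium pumps and exchangers had 0 rises and 1 fall of 7 by limma, with 2 of the 7 at an unadjusted p under 0.05 in either direction. Entry and release channels had 5 rises and 3 falls of 31, sensors 2 and 4 of 21, and pump partners 2 and 1 of 16. The WNK and SPAK genes had 1 rise of 8, the SGK genes 1 rise and 2 falls of 17, and the steroid genes 2 rises and 1 fall of 7. Cation-chloride cotransporters had 1 rise of 4, sodium entry genes 1 rise and 3 falls of 14 (SCNN1D among the falls passed the filter only through untreated Kasumi-1), volume genes 1 rise and 2 falls of 14, and the Na+/K+-ATPase 2 rises of 4. Median log2 changes of these lists lay between -0.12 and 0.29.

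Several of the genes named for HL60 were also called in Kasumi-1. TSC22D3 rose by 1.15, to 12.3 ± 0.444 FPKM in treated Kasumi-1 against 5.03 ± 0.557 FPKM in untreated Kasumi-1 (limma adjusted p = 0.000927). NDRG1 rose by 0.78, to 29.4 ± 0.207 FPKM in treated Kasumi-1 against 16.7 ± 0.0363 FPKM in untreated Kasumi-1. SLC9B2 fell by 0.88, to 6.22 ± 0.0682 FPKM in treated Kasumi-1 against 12.3 ± 0.242 FPKM in untreated Kasumi-1. CAB39L, SLC6A6, NPTN and ATP1B3 rose by 0.70, 0.77, 0.35 and 0.40, and FKBP5 fell by 0.50. FXYD5 and ORAI3, which fell in HL60, rose by 0.37 and 0.56 in Kasumi-1. STIM1 rose by 0.62 in Kasumi-1. The purinergic channel P2RX1, not called in HL60 (log2 change -0.011, limma adjusted p = 0.945), rose by 0.94 in Kasumi-1. It had 19.0 ± 1.69 FPKM in treated Kasumi-1 against 9.35 ± 0.197 FPKM in untreated Kasumi-1. By limma's interaction contrast (Kasumi-1 change minus HL60 change) the difference was -2.17 for TSC22D3 (adjusted p = 1.37e-05), -0.27 for NDRG1 (0.0354), 1.38 for SLC9B2 (2.87e-05), 0.76 for FXYD5 (0.000222), 1.84 for ORAI3 (1.90e-05) and 0.96 for P2RX1 (0.00167).

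**Figure D4:**
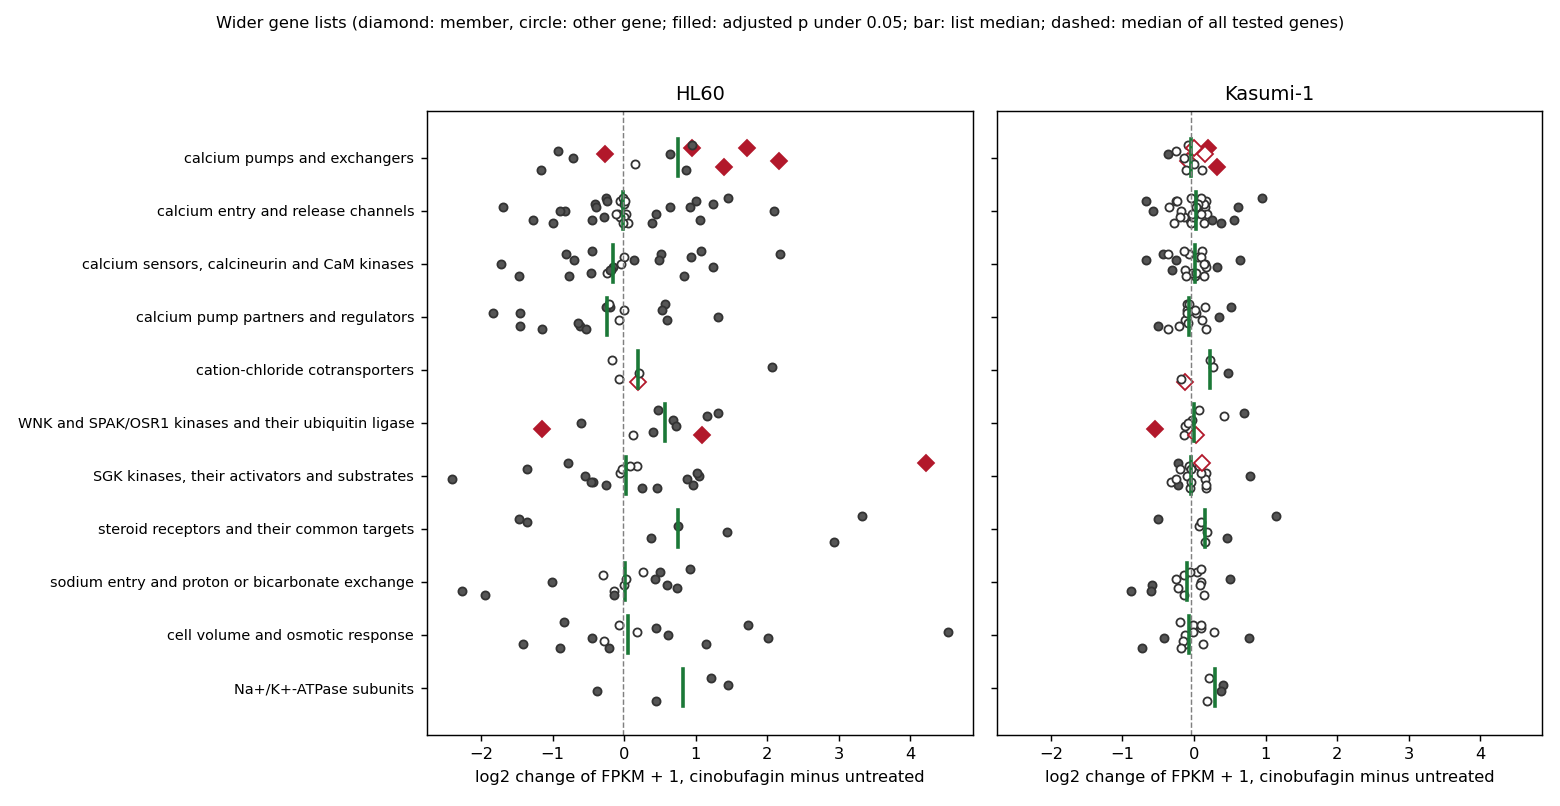
Log2 change of FPKM + 1 with cinobufagin for each tested gene of the wider lists in HL60 and in Kasumi-1 (diamonds, the members; circles, other genes; filled, called; bars, list medians with members; dashed line, median of all tested genes). Among other genes, in HL60 the WNK and SPAK list had 6 rises and 1 fall of 8 and pump partners had 4 rises and 9 falls of 16. Several lists were split more evenly, such as entry and release channels with 9 rises and 11 falls of 31. Of all tested genes 36.0% rose and 37.6% fell in HL60. The changes spread less widely in Kasumi-1.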

How the data were processed

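RNA was measured by sequencing in 8 libraries, 2 in each of 4 groups, taken from the titles in the labels. Per the labels' protocols, an RNeasy kit was used for the RNA and a TruSeq Stranded mRNA kit for sequencing. The authors deposited 1 table of FPKM values with 25593 gene rows and a column per library, and 0 columns were left out. The submitters' processing notes name HISAT2 2.1.0, Cufflinks 2.2.1 and bcl2fastq 2.20.0, with the build hg19. Neither the annotation nor the strand setting nor filters are stated (not given in the sources used here). Reads of antisense genes at SLC8A1, ATP2B1 and WNK1 could therefore not be told apart with certainty from those of the members.

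Read totals and gene lengths are not known, so no counting interval could be set, and an FPKM of 0 was not read as absence. Relative depth was the inverse of the commonest ratio of low values (FPKM under 0.3 throughout) to those of untreated HL60 replicate 1. The small RNA SNORD50A was listed at 0 in every replicate 1 library and at 45596 to 748781 FPKM in every replicate 2 library, and libraries of 1 group correlated across genes with Pearson's r of 0.967 to 0.974.

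From these values log2(FPKM + 1) was tested with limma 3.58.1 in R 4.3.3, with 1 mean per group over all 8 libraries, an intensity trend and 4 residual degrees of freedom. The 12511 genes with at least 1 FPKM in at least 2 libraries were tested and 13082 were not, and p-values were adjusted by Benjamini-Hochberg per contrast, with a threshold of 0.05. The 4 contrasts were treatment in each line, the difference of those changes, and the untreated lines. A permutation of 2 against 2 libraries cannot go below a two-sided p of 0.33. The method was checked on simulated data with few changed genes and noise independent between libraries. These data differ in both respects, so the check does not cover them.

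The members and lists were chosen with earlier results of these data known. All 9 members are named. From each wider list up to 2 genes per direction and line may be named, those with the largest called change, a mean of at least 1 FPKM in the higher group and groups that do not overlap. Symbols follow the table, as with SLC24A6 (now SLC8B1), TMEM66 (SARAF) and EFCAB4B (CRACR2A). Alternatives were a pseudocount of 0.1, no filter, a filter at 5 FPKM, median-ratio rescaling, quantile normalization, a fit of the libraries compared alone, a replicate block and each library left out. Their use on the wider lists was added after seeing the data. A few genes under this rule are not reported here.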

Additional observations from a re-analysis of the deposited data

Results flagged for a closer look

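For 8 of the 9 genes the change with cinobufagin differed between the lines by limma's interaction test, given as the log2 change in Kasumi-1 minus that in HL60. The difference was -4.11 for SGK1 (adjusted p = 2.20e-06), -2.25 for ATP2B1 (3.07e-05), -1.71 for SLC8A1 (1.21e-05), -1.07 for WNK1 (0.000697), -1.06 for ATP2B4 (0.000377) and -0.76 for ATP2A2 (0.000109). It was 0.61 for STK39 (0.0376) and 0.42 for ATP2A3 (0.00305). Of all tested genes 63.1% were called in the same contrast, so a call there is common. SLC8A1 was in the test only through the treated HL60 libraries, and STK39 lost its call without any 1 of 6 libraries.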

How the results depend on the processing

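In HL60, each of the 8 calls kept its direction and side of the threshold under all alternatives in which the gene was tested. SLC8A1 and SLC12A2 were not tested with the filter at 5 FPKM, nor SLC8A1 without treated HL60 replicate 1 or 2. The 3 calls in Kasumi-1 were unstable. They numbered 1 with no filter and 0 when Kasumi-1 was fitted alone, where 7 members were tested and 3 had an unadjusted p under 0.05. Leaving out 1 library gave 0 to 1 calls, with 3 to 4 at an unadjusted p under 0.05. All 3 were lost without any of Kasumi-1 untreated 1, untreated 2 or treated 1, and 2 of 3 without any other library. Over all genes the 3292 calls in Kasumi-1 became 1835 with the line alone and 1621 to 2749 with 1 library left out. The lowest counts came from leaving out a Kasumi-1 library: 1621 without untreated 2, 1689 without untreated 1, 1785 without treated 1 and 2067 without treated 2.

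The following 4 uncalled changes in Kasumi-1 turned sign when a Kasumi-1 library was left out. WNK1 ranged from -0.084 (without treated 2) to 0.13 and was -0.070 without untreated 1. ATP2B1 ranged from -0.19 to 0.022 and SLC12A2 from -0.28 to 0.041, both highest without untreated 2, and SLC8A1 from -0.00048 (without treated 1) to 0.0038. No scaling moved the median of all genes by over 0.1. The cause of these shifts was not tested.

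No label says what same-numbered libraries share beyond the number. Their deviations correlated at 0.125 to 0.331 over 6 pairs of groups. With the replicate block 8 members were called in HL60 (9787 genes in all), 4 in Kasumi-1 (4749), 8 for the difference (8751) and 9 between untreated lines (9548). Added under the block were ATP2A3 in Kasumi-1 (adjusted p = 0.0140) and ATP2B1 (0.0147) and WNK1 (0.0276) between untreated lines. The difference between lines could not be fitted with a line alone. Of the genes the rule names from wider lists, 38 of 39 in HL60 and 18 of 28 in Kasumi-1 kept their call under each alternative. Depth is unknown, which limits SLC8A1 in Kasumi-1.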
